A study of Mus musculus with 47 samples.

Results

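Genes with alternative last exons were examined in P19 cells, a mouse embryonal carcinoma line, before and after neuronal differentiation. Members were the gene symbols with at least 2 RefSeq NM transcripts, each present as a single row of the count files, whose 3′ UTR intervals lay apart on one chromosome and strand. The rule found 683 genes of the 18854 genes in the files. Their 3′ UTR intervals merged into 1450 separate regions of 20643 in all: 609 genes had 2 regions, 65 had 3 and 9 had 4 or more. The rule used annotation alone and no measured value. Regions of a gene are numbered here from 5′ to 3′ along the transcript, so that region 1 belongs to the most upstream ending.

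SLAM-seq, which reads the incorporation of 4-thiouridine (4sU) into RNA as T-to-C conversions, was available for 47 libraries of wild-type P19 cells. Undifferentiated cells (D0, 24 libraries) were compared with cells kept in NDiff 227 medium with 500 nM retinoic acid for 6 days (D6, 23 libraries). In the anabolic assay 4sU was added for up to 9 h, and in the catabolic assay cells labeled for 15 h were chased for up to 9 h, with 20 µM 4sU at D0 and 500 µM at D6. The 4sU dose and the state therefore cannot be told apart in labeled libraries, and the comparison of last exon usage rested on the 3 unlabeled libraries of each state. All groups were one cell line. The study describes its SLAM-seq replicates as biological, without saying in the sources used here how the cultures were kept apart, and p-values measure the spread between these libraries.

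A last exon carries the end of the coding sequence, the 3′ UTR and the poly(A) site. A gene with several last exons can thus give transcripts that differ in the C-terminus of the protein and in the whole 3′ UTR. In the composite kind, an internal exon is extended into the following intron and ends there. In the separate kind, a distinct exon is spliced in as the terminal one. Neurons are known for switching last exons of genes for cytoskeletal, trafficking and receptor proteins, and proteins of the spliceosome and of the cleavage and polyadenylation machinery take part in that choice. With 3′-end libraries, each ending gives its own cluster of reads.

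In mouse GENCODE M21 transcripts, the upstream last exon was of the separate kind in 312 genes and composite in 268. In 8 genes the last exons overlapped, and 95 genes had fewer than 2 matched regions. A poly(A) signal hexamer, AATAAA or ATTAAA on the transcribed strand, stood in the last 50 bases of 72.8% of 467 most 5′ regions and 79.9% of 478 most 3′ regions with a matched sequence, beside 76.9% of 14918 regions of all genes. Regions with a mean of at least 10 reads held it in 79.5% of the most 5′ and 84.6% of the most 3′ cases, against 68.4% and 72.9% of regions with fewer reads. The most 5′ regions were shorter, with a median length of 680 bases against 1046 for the most 3′ regions.

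The 3′ ends of *Cdc42* and *Itsn1*, whose usage was called below, and of *Kif1b*, a textbook case that was called with 4sU alone, are shown to place the alternative endings beside each other. They were picked among genes in which every ending had a matched sequence with a poly(A) signal, and those of *Ntrk2* and *Rufy3* are not shown. Each line gives the last 30 bases of a region on the transcribed strand, 5′ to 3′, from GENCODE M21 transcripts (build mm10), with the poly(A) signal nearest the end in capitals. The endings of *Cdc42* lay at chr4:137321762-137321791 (region 1) and chr4:137319696-137319725 (region 2), those of *Itsn1* at chr16:91832324-91832353, chr16:91871626-91871655 and chr16:91920550-91920579, and those of *Kif1b* at chr4:149233734-149233763 and chr4:149176319-149176348. *Cdc42* and *Kif1b* are on the minus strand and *Itsn1* on the plus strand.
Cdc42 region 1: aaATTAAAaatatacaattgtttgtataaa
Cdc42 region 2: tATTAAAcaaacaaaacccttcacaagtga
Itsn1 region 1: tAATAAAaggttatgagagaaaggggcaaa
Itsn1 region 2: tagataATTAAAttcttcatataaaagtta
Itsn1 region 3: taaattttATTAAAaaacaaatccaaagtg
Kif1b region 1: tattaaagaAATAAAatcttcctgaaataa
Kif1b region 2: aaatAATAAAggtacaaccagtgcatcaca
Since endings with a hexamer were chosen, its presence here is no result, and it does not say which ending was used.

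The unlabeled libraries held 5052556 to 6613014 reads in 3′ UTR regions at D0 and 3279906 to 6350694 at D6, and regions of the alternative last exon genes took 3.15 to 4.24% of reads over all 47 libraries. Libraries had no molecular identifiers, so reads are not independent molecules. The neuronal markers *Map2*, *Tubb3*, *Dcx*, *Elavl3*, *Elavl4* and *Stmn2* were higher at D6 in 6 of 6 cases, with a summed level of 9189 to 10713 RPM (reads scaled to library size) at D6 against 510 to 706 RPM at D0. *Pou5f1*, *Tdgf1* and *Utf1* of the 6 embryonal carcinoma markers were lower at D6. The 6 summed to 688 to 998 RPM at D6 and 1250 to 2017 RPM at D0, with *Dppa5a* at 0 in both states and *Nanog* at 0 at D6. Glial markers were at or near 0 in both states. Smooth muscle and fibroblast markers summed to 122 to 152 RPM at D0 and 0.961 to 10.6 at D6, and endoderm markers stayed at or below 8.89 in every library. The part that the change in cell types has in the results was not tested, and in these bulk samples fewer cells of a type and less RNA per cell cannot be told apart.

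In the 6 unlabeled libraries, 235 of the 683 genes had 2 or more regions with a mean of at least 10 reads, 253 had a single such region and 195 had none. Where a single region was read, it was the most 3′ one in 183 genes, the most 5′ one in 66 and an intermediate one in 4. Of 338 genes with a mean of at least 50 reads and a read in every library, 147 had more than 90% of reads in the most 3′ region at D0, 62 had less than 10% and 129 lay in between. The corresponding numbers at D6 were 153, 52 and 133. The share of the most 3′ region had a median of 83.6% at D0 and 86.8% at D6. The median change per gene was 0 points, and the median size of the change regardless of sign was 4.51 points. The share moved by under 5 points in 177 genes and by over 20 points in 76. The 6 libraries did not overlap between states in 44 of the 338 genes (13%). Of these, 30 had a higher and 14 a lower share at D6. For 3 libraries against 3 the smallest two-sided exact permutation p is 0.1, so such separation also arises by chance. How many of the 44 arose so was not tested. Separation was seen in 7.63% of all 695 genes with separate regions at this depth and 2.52% of the 357 that are not members. As the 357 did not meet the member rule, their separate regions need not be alternative endings, and neither percentage is a like background. This also limits later percentages of all genes with at least 2 tested regions.

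**Figure D1:**
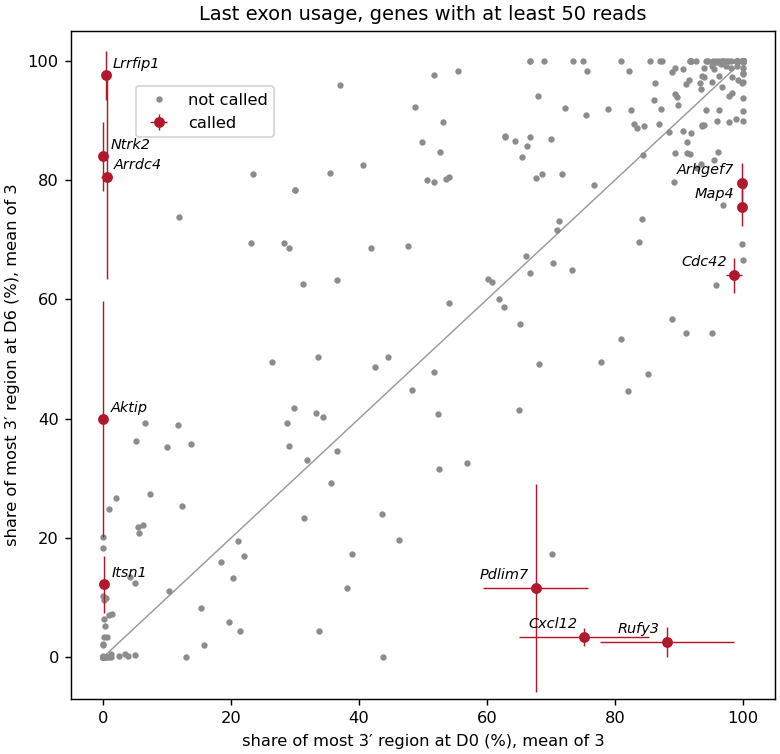
Share of the gene's reads in its most 3′ region at D0 (x axis, %) and D6 (y axis, %), mean of 3 unlabeled libraries each, for 338 genes with at least 50 reads on average. Red points with SD bars are the 11 of 13 called genes that had a read in every library. Grey points are the other genes, and at D0 147 of the 338 lie above 90% and 62 below 10%.

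A change of last exon usage between D0 and D6 was called in 13 of the 235 tested genes (5.53%; 4.29% of all 326 genes tested with at least 2 regions; edgeR's quasi-likelihood test of differential region usage, adjusted p under 0.05). With a library left out, 5 to 12 genes were called, 5 to 8 of them among these 13 (5 without D6 replicate 38). The most 3′ region gained share in 6 genes and lost share in 7. An unadjusted p under 0.05 was found in 57. Of the 13, 9 were of the separate kind among 109 tested and 4 were composite among 97 tested. In 11 of the 13, a single region changed in reads (8 higher and 3 lower at D6), in the other 2 none was called, and in no case were regions called in opposite directions. The total reads of the gene were called in 5 of the 13.

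**Figure D2:**
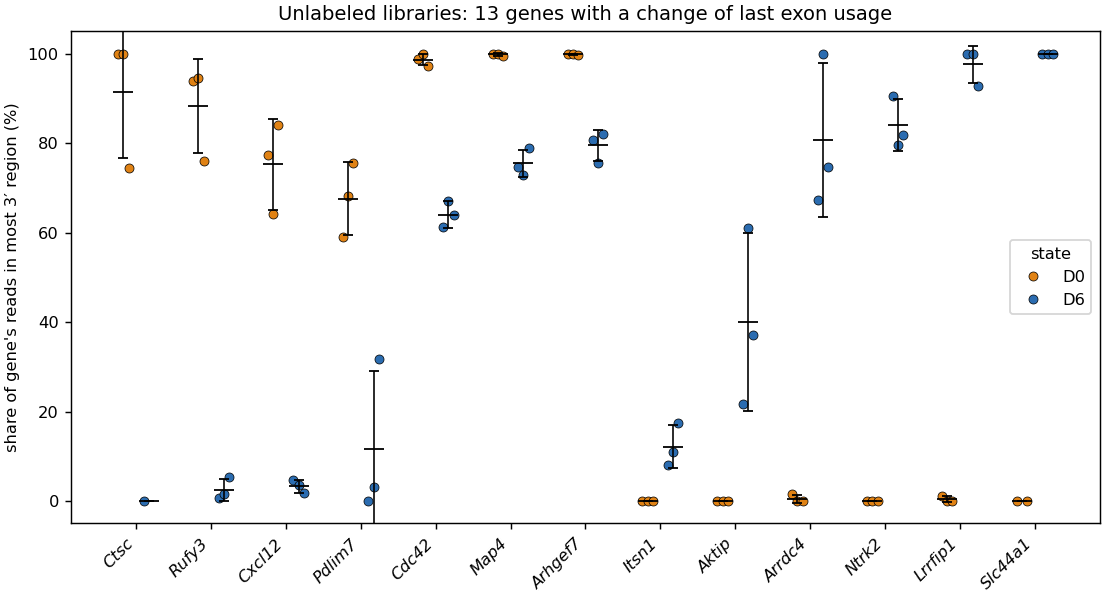
Share of the gene's reads in its most 3′ region (%, y axis) for the 13 called genes in the unlabeled libraries. Each point is a library (orange D0, blue D6), with mean and SD. The states do not overlap in the 11 genes with reads in every library, whereas Ctsc has 1 D6 library with reads and Slc44a1 has 2 D0 libraries with reads.

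The small GTPase *Cdc42*, a regulator of actin and cell polarity, gained its upstream ending. *Cdc42* is known to end either in an upstream exon, which gives the brain form, or in the downstream exon of the ubiquitous form. Region 1 (NM_001243769.1, chr4:137321762-137322529) had 42, 2 and 82 reads at D0 and 1270, 695 and 1411 at D6. Region 2 (NM_009861.3, chr4:137319696-137321102) had 3228, 1746 and 2994 reads at D0 and 2001, 1418 and 2490 at D6. All D6 libraries were above all D0 libraries in region 1, while the ranges of region 2 overlapped. Reads of *Cdc42* region 1 rose by 5.30 ± 0.78 (SE) on the log2 scale (adjusted p = 0.000615), and those of region 2 differed by 0.06 ± 0.25 (adjusted p = 0.928). The share of the downstream ending fell from 98.6% ± 1.28 (SD, n = 3) to 64.0% ± 2.97 (n = 3; edgeR, adjusted p = 6.4e-06). The call held with any one library left out.

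*Itsn1*, an endocytic scaffold, is known for a short form and a long, neuron-enriched form that carries an exchange factor domain for Cdc42. Region 3, the ending of the long form (NM_010587.2, chr16:91912010-91920579), had 3, 2 and 1 reads at D0 and 104, 180 and 395 at D6. Region 2, the main ending (NM_001110275.1), had 2312, 2369 and 2258 reads at D0 and 1113, 1475 and 1810 at D6. The most 5′ region of *Itsn1* was a minor one, with 26 to 195 reads at D0 and 0 to 57 at D6. Region 3 rose by 7.10 ± 1.19 on the log2 scale (adjusted p = 0.00168), whereas region 2 changed by -0.19 ± 0.31 (adjusted p = 0.795). The share of *Itsn1* region 3 was 0.0826% ± 0.0414 at D0 and 12.2% ± 4.83 at D6 (n = 3 each; edgeR, adjusted p = 0.0028). The adjusted p was 0.0531 without D6 replicate 39.

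*Arhgef7*, which encodes the exchange factor beta-PIX for Rac and Cdc42, gained an upstream composite ending. Region 1 of *Arhgef7* (NM_001113517.1, chr8:11824720-11827152) had 1, 0 and 1 reads at D0 and 116, 215 and 197 at D6, a ratio of 343 per read of depth with a counting interval of 94.5 to 2840.5. Region 2 (NM_017402.4) had 494 to 687 reads at D0 and 487 to 906 at D6, and the ranges overlapped. The share of the downstream ending of *Arhgef7* fell from 99.9% ± 0.109 to 79.5% ± 3.42 (n = 3 each; edgeR, adjusted p = 0.00207), and the adjusted p was 0.0569 without D6 replicate 38. The ratio of 343 is that of the unlabeled libraries alone. In labeled libraries the downstream share was 79.3 to 100% at D0 (median 98.3%) and 40.3 to 100% at D6 (median 88.8%). Over pooled reads it was 97.4% and 86.8%, and in the catabolic libraries at 0 h the change was -1.59 points.

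*Ntrk2* encodes the neurotrophin receptor TrkB, whose upstream ending gives the truncated receptor without the kinase domain and whose downstream ending gives the full-length kinase. Region 1 of *Ntrk2* (NM_008745.3, chr13:58932061-58937031) had 108, 139 and 161 reads at D0 and 40, 61 and 114 at D6. Region 2 (NM_001282961.1, chr13:59128354-59133970) had 0, 0 and 0 reads at D0 and 387, 238 and 511 at D6. The downstream ending was thus read in every D6 library and in no unlabeled D0 library, at least 492-fold higher at D6 against a floor of 3 reads over the D0 group. The share of this ending in *Ntrk2* was 0% at D0 and 84.0% ± 5.85 at D6 (n = 3 each; edgeR, adjusted p = 4.91e-06), and the call held with any one library left out. Reads of region 1 differed by -0.55 ± 1.00 on the log2 scale (adjusted p = 0.816). The bound of 492-fold is that of the unlabeled libraries alone and does not hold for labeled ones. With 4sU, region 2 of *Ntrk2* was also read at D0, with a share of 0 to 16.7% (median 1.87%). Its share at D6 was 0 to 100% there (median 77.2%), and the gene had a median of 123 reads per D0 library and 231 per D6 library.

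*Rufy3*, which encodes a RUN domain protein of neuronal polarity and axon growth, moved to its upstream ending. Region 1 of *Rufy3* (NM_001289775.1, chr5:88640662-88642704) had 7, 9 and 39 reads at D0 and 2030, 1911 and 3362 at D6. Region 2 (NM_001289774.1) had 107, 159 and 124 reads at D0 and 12, 32 and 188 at D6, so that its ranges overlapped. Region 1 rose by 7.51 ± 0.60 on the log2 scale (adjusted p = 3.84e-06). The share of the downstream ending of *Rufy3* fell from 88.2% ± 10.5 to 2.51% ± 2.47 (n = 3 each; edgeR, adjusted p = 1.36e-05), and the call held with any one library left out.

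*Map4*, a microtubule-associated protein, gained an upstream ending while its downstream ending stayed in use. Region 1 of *Map4* (NM_001205331.1, chr9:110002754-110005784) had 0, 0 and 1 reads at D0 and 107, 93 and 265 at D6, a ratio of 604 with a counting interval of 108 to 23920. Region 2 (NM_001205330.1) had 374, 139 and 193 reads at D0 and 314, 250 and 992 at D6. The share of the downstream ending of *Map4* was 99.8% ± 0.298 at D0 and 75.5% ± 3.11 at D6 (n = 3 each; edgeR, adjusted p = 0.0122). The adjusted p was 0.0700 without D0 replicate 55, 0.0583 without D6 replicate 38 and 0.0582 without D6 replicate 39. The ratio of 604 is that of the unlabeled libraries alone. In labeled libraries the downstream share of *Map4* was 76.2 to 100% at D0 (median 99.7%) and 3.15 to 100% at D6 (median 64.3%). Over pooled reads it was 98.0% and 62.3%.

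**Figure D3:**
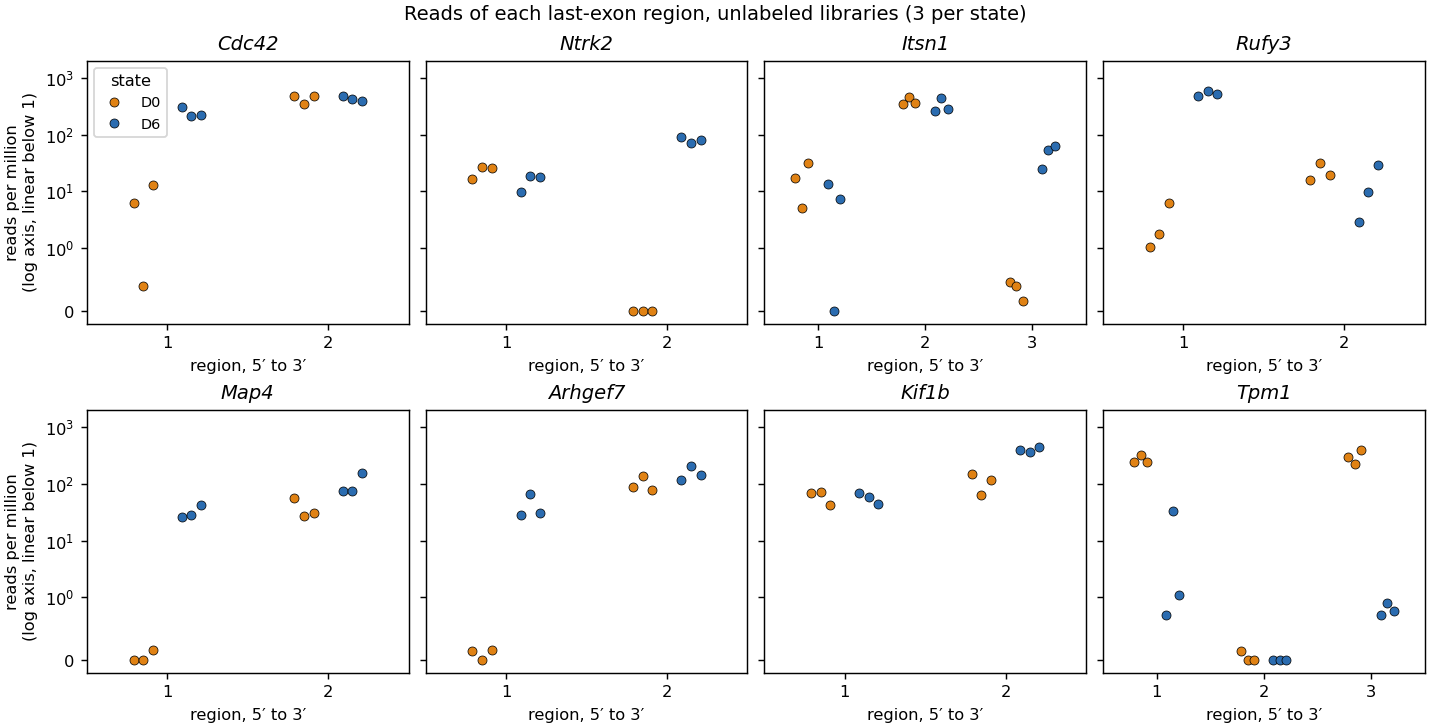
RPM (reads scaled to library size, y axis, log scale that is linear below 1) of each region of 8 genes, numbered 5′ to 3′, in the 3 unlabeled libraries of D0 (orange) and D6 (blue). In Cdc42, Rufy3, Map4 and Arhgef7 the upstream region was higher at D6 in every library, with 0 or 1 read per D0 library in Map4 and Arhgef7 and 2 to 82 in Cdc42 and Rufy3. In Ntrk2 and Itsn1 the most downstream region was higher, and in Tpm1 the regions read at D0 were low at D6.

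Downstream endings were lower at D6 in the chemokine gene *Cxcl12* and in *Pdlim7*, which encodes a PDZ and LIM domain protein of the actin cytoskeleton. Region 2 of *Cxcl12* (NM_001012477.2, chr6:117176180-117181368) had 963, 439 and 912 reads at D0 and 2, 2 and 1 at D6, and region 1 had 281, 245 and 172 at D0 and 41, 53 and 57 at D6. Both regions were lower in every D6 library, and region 2 by more: it fell by 8.21 ± 0.77 on the log2 scale (adjusted p = 1.52e-05), whereas region 1 changed by -1.71 ± 0.87 (adjusted p = 0.25). The share of region 2 in *Cxcl12* was 75.2% ± 10.2 at D0 and 3.34% ± 1.49 at D6 (n = 3 each; edgeR, adjusted p = 0.000163). Region 2 of *Pdlim7* (NM_001114088.2) had 325, 483 and 411 reads at D0 and 0, 2 and 25 at D6, and its share was 67.6% ± 8.25 at D0 and 11.6% ± 17.4 at D6 (n = 3 each; edgeR, adjusted p = 0.0483). The *Pdlim7* call was lost when any one of 5 of the 6 libraries was left out (adjusted p = 0.0700 to 0.275; replicates 55, 56 and 57 of D0, 37 and 38 of D6).

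*Aktip*, whose product is an adaptor of the dynein-linked FTS-Hook complex, had 0, 0 and 0 reads in region 2 (NM_001302337.1) at D0 and 26, 132 and 190 at D6, at least 151-fold higher, with a share of 39.9% ± 19.9 at D6 (edgeR, adjusted p = 0.00298; 0.0652 without D6 replicate 38). In labeled libraries this region of *Aktip* was also read at D0, with a share of 0 to 27.04% (median 8%) against 0 to 68.2% at D6 (median 14.8%). The remaining 4 called genes rested on few reads or few libraries. *Lrrfip1* had 84, 23 and 157 reads in region 1 at D0 and 0, 0 and 1 at D6, against 1, 0 and 0 in region 2 at D0 and 27, 23 and 13 at D6. *Arrdc4*, an arrestin domain gene, had 1, 0 and 0 reads in region 2 at D0 and 125, 44 and 200 at D6, and its region 1 is only 34 bases long. *Ctsc*, a lysosomal protease gene, had reads in a single D6 library, and *Slc44a1*, a choline transporter gene, had none in 1 D0 library. In labeled libraries the median downstream share was 9.58% at D0 and 0% at D6 in *Lrrfip1*, 38.4% and 47.8% in *Arrdc4*, and 100% in both states in *Ctsc*. The gene had a median of 14 reads per D6 library in *Lrrfip1* and 1 in *Ctsc*. Over the pooled reads of labeled libraries the share was 13.4% at D0 and 56.4% at D6 in *Lrrfip1*, 36.9% and 47.9% in *Arrdc4*, and 89.7% and 66.5% in *Ctsc*, each in the direction seen without 4sU. Each of these last 4 had an adjusted p of 0.0446 (edgeR). *Lrrfip1*, *Ctsc* and *Slc44a1* lost the call whichever of the 6 libraries was left out: 4 times each the test missed the threshold (adjusted p = 0.0531 to 0.187, 0.0663 to 0.178 and 0.0562 to 0.148), and 2 times each a region fell below the minimum of reads. *Arrdc4* was called without D0 replicate 55 and lost without any of the other 5 libraries (0.0663 to 0.202).

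The same comparison was made in the 41 libraries with 4sU, with assay and time as terms, as an alternative chosen after seeing the data. In this fit and that of all 47, each library counted as a replicate of its state. Whether time points shared cultures is not known, so these p-values are not those of as many independent cultures. The 41 include 3 anabolic libraries of each state labelled 1 h, whose T-to-C conversions per covered T in member regions were 0.156% ± 0.00122 at D0 and 0.199% ± 0.0389 at D6, near the 0.176% ± 0.0458 and 0.151% ± 0.0172 without 4sU (n = 3 each). There 75 of 238 tested genes were called (31.5%; 28.5% of all 330 genes tested), 47 with a higher and 28 with a lower share of the most 3′ region at D6. Of the 13 genes called without 4sU, 11 were tested there, all 11 had the same direction of the mean share, and 8 were called: *Cdc42*, *Itsn1*, *Map4*, *Rufy3*, *Ntrk2*, *Arhgef7*, *Cxcl12* and *Pdlim7*. *Aktip* (adjusted p = 0.296), *Lrrfip1* (0.196) and *Arrdc4* (0.467) were not called. In all 47 libraries 83 of 236 genes were called (35.2%; 31.3% of all 326 tested). In the catabolic libraries at 0 h alone, 3 of each state, edgeR called *Cdc42* and no other member, and 44 had an unadjusted p under 0.05.

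Among labeled libraries the downstream share of *Cdc42* ran from 94.7% to 99.8% at D0 (median 97.8%, n = 21) and from 54.2% to 87.0% at D6 (median 69.5%, n = 20), and the states did not overlap (edgeR, adjusted p = 9.28e-27). *Rufy3* was at 12.5 to 93.3% at D0 (median 52%) and 0 to 16.3% at D6 (median 4.10%), and these ranges overlapped. *Itsn1* region 3 was at 0 to 0.884% at D0 (median 0.157%) and 0 to 33.5% at D6 (median 13.1%). *Ntrk2* region 2 was at 0 to 16.7% at D0 (median 1.87%) and 0 to 100% at D6 (median 77.2%, n = 19 libraries with reads). In *Cxcl12*, which had a median of 4 reads per D6 library there, the share of region 2 had a median of 73.7% at D0 and 77.8% at D6, its mean was 7.16 points lower at D6, and over pooled reads it was 73.1% at D0 and 30.3% at D6.

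In 22 genes the call with 4sU went with unlabeled shares that did not overlap between states and had the same direction (10.9% of the 201 members with both measures; 9.47% of all 285 genes with both). They included the 8 above and 14 that were not called without 4sU. *Cox16* and *Gm20498* count as 2 of the 22 but share the same intervals and reads. The next genes were picked from these 14 after their values were seen. *Ap1s2*, a sigma subunit of the AP-1 clathrin adaptor, had a downstream share of 9.09, 17.99 and 42.98% at D0 and 93.1, 76.8 and 73.5% at D6 without 4sU, and medians of 30.1% and 99.2% with 4sU (adjusted p = 2.56e-06). *Nsd2*, a histone H3 lysine methyltransferase gene, was at 79.4, 84.3 and 69.99% at D0 and 47.7, 54.3 and 46.4% at D6, with medians of 73.7% and 46.3% with 4sU (adjusted p = 2.28e-06). *Bcl11a*, a zinc finger transcription factor gene, was at 38.5, 51.4 and 40.8% at D0 and 27.5, 24.2 and 20.1% at D6, with medians of 53.8% and 26.6% (adjusted p = 2.65e-06). That the unlabeled shares of these 3 do not overlap follows from how they were picked.

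**Figure D4:**
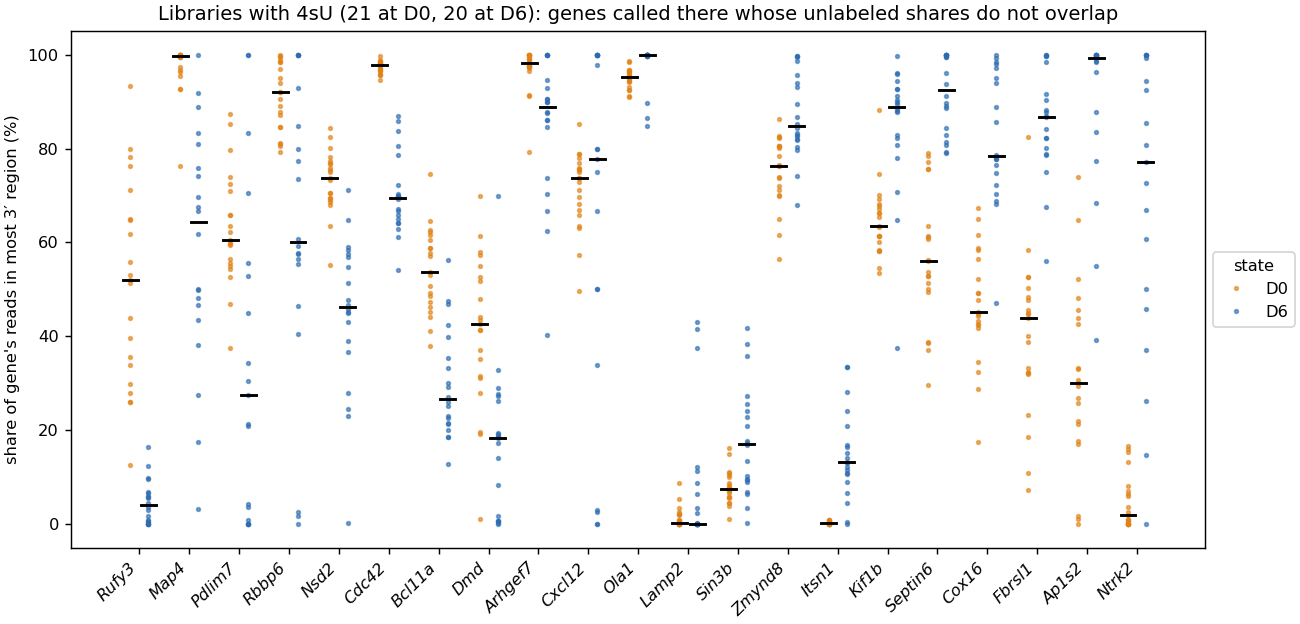
Share of the gene's reads in its most 3′ region (%, y axis) in the labeled libraries, 21 at D0 (orange) and 20 at D6 (blue), for 21 of the 22 genes called there whose unlabeled shares did not overlap (Gm20498 has the reads of Cox16). Each point is a library and the bar is the median. Cdc42 separates fully and Cxcl12 has nearly equal medians.

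Of the 20 genes listed as textbook cases of alternative last exons, 15 were members, 11 were tested and 2 were called without 4sU (*Cdc42* and *Ntrk2*), beside 4.29% of all genes tested. With 4sU 7 of 12 were called, beside 28.5%. *Kif1b*, a kinesin motor known for a short alpha form from the upstream ending and a long beta form from the downstream one, had 456, 359 and 269 reads in region 1 at D0 and 285, 195 and 278 at D6. Its region 2 (NM_001290995.1, chr4:149176319-149180767) had 974, 327 and 725 reads at D0 and 1619, 1198 and 2805 at D6 and rose by 1.94 ± 0.33 on the log2 scale (adjusted p = 0.00169). The downstream share of *Kif1b* was 62.9% ± 13.4 at D0 and 87.3% ± 3.19 at D6 without 4sU (n = 3 each; edgeR, adjusted p = 0.168), the states did not overlap, and the adjusted p with 4sU was 6.03e-06.

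*Klc1*, a kinesin light chain gene with C-terminal variants, had 171, 139 and 234 reads in region 1 at D0 and 1128, 809 and 1515 at D6, a rise of 3.11 ± 0.36 on the log2 scale (adjusted p = 9.66e-05). Its downstream region differed by 1.02 ± 0.77 (adjusted p = 0.468). The downstream share of *Klc1* was 46.3% ± 24.9 at D0 and 19.6% ± 8.42 at D6 (n = 3 each; edgeR, adjusted p = 0.168), the states overlapped, and the adjusted p with 4sU was 7e-08. *Cux1*, which encodes a homeodomain factor from its upstream ending and the Golgi protein CASP from the downstream one, had 212, 190 and 500 reads in region 1 at D0 and 1098, 923 and 1622 at D6 (log2 change 2.48 ± 0.40, adjusted p = 0.00129), and 258, 204 and 41 in region 2 at D0 and 132, 98 and 268 at D6. The share of region 2 of *Cux1* was 38.1% ± 26.5 at D0 and 11.5% ± 2.39 at D6 (n = 3 each; edgeR, adjusted p = 0.188).

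*Tpm1*, an actin-binding tropomyosin gene with alternative terminal exons, lost both endings in use. Region 1 (NM_001164254.1) had 1585, 1654 and 1492 reads at D0 and 3, 107 and 7 at D6, and region 3 (NM_001164253.1, chr9:67022593-67023358) had 1979, 1111 and 2434 at D0 and 3, 3 and 5 at D6. Region 3 of *Tpm1* fell by 8.46 ± 0.50 on the log2 scale (adjusted p = 2.35e-07) and region 1 fell by 4.51 ± 1.06 (adjusted p = 0.0141). The share of region 3 did not separate the states without 4sU (52.6% ± 11.2 and 31.5% ± 25.2, n = 3 each; edgeR, adjusted p = 0.168; 0.0283 without D6 replicate 37), and the adjusted p with 4sU was 5.26e-06. *Tpm3* kept 98.4% ± 1.47 of reads in region 3 at D0 and 97.3% ± 3.19 at D6 (n = 3 each; adjusted p = 0.881), and reads of this region fell by 1.04 ± 0.30 (adjusted p = 0.0388). The change of share in *Tpm3* was -8.97 points with 4sU (adjusted p = 0.00669).

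The remaining textbook genes were not called without 4sU or had fewer than 2 tested regions. *Ncam1*, a neural cell adhesion gene whose upstream ending gives the lipid-anchored form, had 2457, 1253 and 2159 reads in region 2 at D0 and 10007, 5966 and 12296 at D6, a rise of 2.74 ± 0.24 (adjusted p = 9.46e-06), while region 1 had 0 reads in each D0 library and 0, 1 and 38 at D6. *Homer1*, a postsynaptic scaffold gene with a short activity-induced form, had no read in its upstream region in any of the 6 libraries and 88 to 205 at D0 and 140 to 293 at D6 in the downstream one. *Tmpo*, which encodes the nuclear envelope protein LAP2, had downstream shares of 85.4, 88.3 and 88.1% at D0 and 89.7, 95.2 and 91.2% at D6, which did not overlap (edgeR, adjusted p = 0.754). *Dst*, a gene of cytoskeletal linkers, kept 95.4% ± 4.61 in the downstream region at D0 and had all reads there at D6 (n = 3 each; adjusted p = 0.168), and with 4sU the share of *Dst* was 3.51 points higher at D6 (adjusted p = 0.0302). *Lmna*, the lamin A and C gene, varied from 0 to 65.5% at D0 and from 45.1 to 100% at D6 (adjusted p = 0.907), and *Cstf3*, a subunit of the cleavage stimulation factor, was at 76.7% ± 8.86 and 79.2% ± 13.8 (n = 3 each; adjusted p = 0.932). *Ntrk3* had no read at D0, and *Dtna* had 1 region under the minimum of reads.

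By functional list, counts are set beside 4.29% of all genes called without 4sU and 28.5% with 4sU. Microtubule and motor genes held 5 members, of which *Map4* was called among 4 tested, and 4 of 4 were called with 4sU (*Map4*, *Kif1b*, *Klc1* and *Dst*). Small GTPases and their regulators held 3, of which *Cdc42* and *Arhgef7* were called among 2 tested, without and with 4sU. Neuronal adhesion, receptor and synapse genes held 8, of which *Ntrk2* was called among 3 tested, without and with 4sU. Without 4sU none was called among 3 tested actin cytoskeleton members, 3 of nuclear envelope and chromatin, 1 of RNA-binding and splicing factors (*Qk*) and 4 of the cleavage and polyadenylation machinery (*Cdk12*, *Cstf3*, *Rbbp6* and *Wdr33*). With 4sU, 2 of 3 actin members (*Tpm1* and *Tpm3*), 1 of 4 of the cleavage and polyadenylation machinery, 0 of 3 of nuclear envelope and chromatin and 0 of 1 RNA-binding factors were called. The one of the cleavage machinery was *Rbbp6* (adjusted p = 0.0028), and its downstream share without 4sU was 85.1, 74.2 and 86.8% at D0 and 38.9, 61.7 and 33.2% at D6, which did not overlap (adjusted p = 0.236). Regulators of terminal exon choice were also read at the level of the whole gene. Of 49 genes of RNA-binding and splicing factors, 12 rose and 1 fell, beside 6.85% and 4.71% of 11170 genes tested, with *Elavl4* (log2 change 6.34 ± 0.34), *Rbfox1* (4.45 ± 0.61) and *Nova2* (2.71 ± 0.51) higher and *Ptbp1* lower (-1.79 ± 0.30). The median log2 change of this list was 0.30, and *Elavl3* and *Elavl4* among its risers are also in the neuronal marker list above. Of 29 cleavage and polyadenylation genes tested, edgeR called 0 in either direction, 4 had an unadjusted p under 0.05, and the median log2 change was -0.36.

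The level of each ending was tested region by region. Of 743 member regions with enough reads, 47 (6.33%) were higher and 21 (2.83%) were lower at D6 by edgeR, beside 6.74% and 4.54% of all 11520 regions. The median log2 change was 0.17 over member regions and -0.01 over all regions. In the 235 genes with at least 2 tested regions, 2 had every tested region higher, 2 had every tested region lower, 33 had some regions higher with the rest not called and 14 had some lower with the rest not called. No gene had one region called higher and another called lower, and 184 had no region called. DESeq2 called 123 of the member regions, and without D6 replicate 39 edgeR called 44. These alternatives are given without the share over all regions, so they do not compare member regions with others.

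Labeling compared endings of one gene within a state. Member regions had 1.41% ± 0.0836 conversions per covered T after 15 h at D0 and 4.41% ± 0.371 at D6, 0.355% ± 0.0249 and 0.762% ± 0.0608 after the 9 h chase, and 0.176% ± 0.0458 and 0.151% ± 0.0172 without 4sU (n = 3 each). After 15 h the median over genes was 1.31% in the most 5′ and 1.38% in the most 3′ region at D0 (107 genes), and 4.35% and 4.24% at D6 (108 genes). The label left after 9 h, as a percentage of that at 15 h, had a median of 19.1% in the most 5′ and 13.8% in the most 3′ region at D0, with the most 3′ region higher in 49 of 96 genes with both values. At D6 the medians were 11.7% and 11.3%, with the most 3′ region higher in 54 of 103. The conversions without 4sU were not subtracted from these percentages and are a larger part of the chase value at D0. The percentages of D0 and D6 therefore cannot be set side by side.

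A difference in label left between the endings of a gene was called in 1 gene at D0 (0.935%; 0.82% of all 122 genes tested) and 1 at D6 (0.926%; 0.82% of 122), *Sin3b* in both (edgeR, adjusted p = 0.00377 and 0.0368). *Sin3b* encodes a scaffold of a histone deacetylase corepressor complex. Region 1 of *Sin3b* (NM_001113248.2, chr8:72739790-72739914) had 0.760% ± 0.562 conversions after 15 h and 1.07% ± 0.193 after the chase at D0, and 4.32% ± 0.786 and 3.10% ± 1.13 at D6 (n = 3 each). Region 2 (NM_009188.4, chr8:72757406-72758203) had 1.72% ± 0.687 after 15 h and 0.0262% ± 0.0143 after the chase at D0. At D6 region 2 had 4.23% ± 1.56 after 15 h and 0 conversions of 10945 covered T after the chase, which allows up to 0.0274%. All 6 chased libraries were thus higher in region 1 of *Sin3b* than in region 2, whereas after 15 h region 2 was the higher one in the mean at D0 and the regions were near each other at D6. Region 1 is 125 bases long.

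The call in *Sin3b* depended on single libraries. At D0 it was lost without replicate 25 or 26 of the 15 h label or replicate 34, 35 or 36 of the chase (adjusted p = 0.0627 to 0.219), and at D6 without replicate 7 of the 15 h label or replicate 16 of the chase (0.0858 and 0.101). Limma on background-subtracted rates gave adjusted p = 0.257 at D0 and 0.106 at D6, and a minimum of 300 covered T gave 0.246 at D0. Region 2 of *Sin3b* at D6 was also near 0 in replicate 11 (chase labelled 1 h, 0.0694%), replicate 14 (3 h, 0.0147%) and replicate 53 (9 h uptake, 0.0716%). The other D6 libraries of these groups had 1.27 to 7.21%. Conversions in replicate 25 of D0 were 0.113% in region 1 of *Sin3b*, beside up to 1.13% in the other 2 libraries. The limit above covers counting error only.

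**Figure D5:**
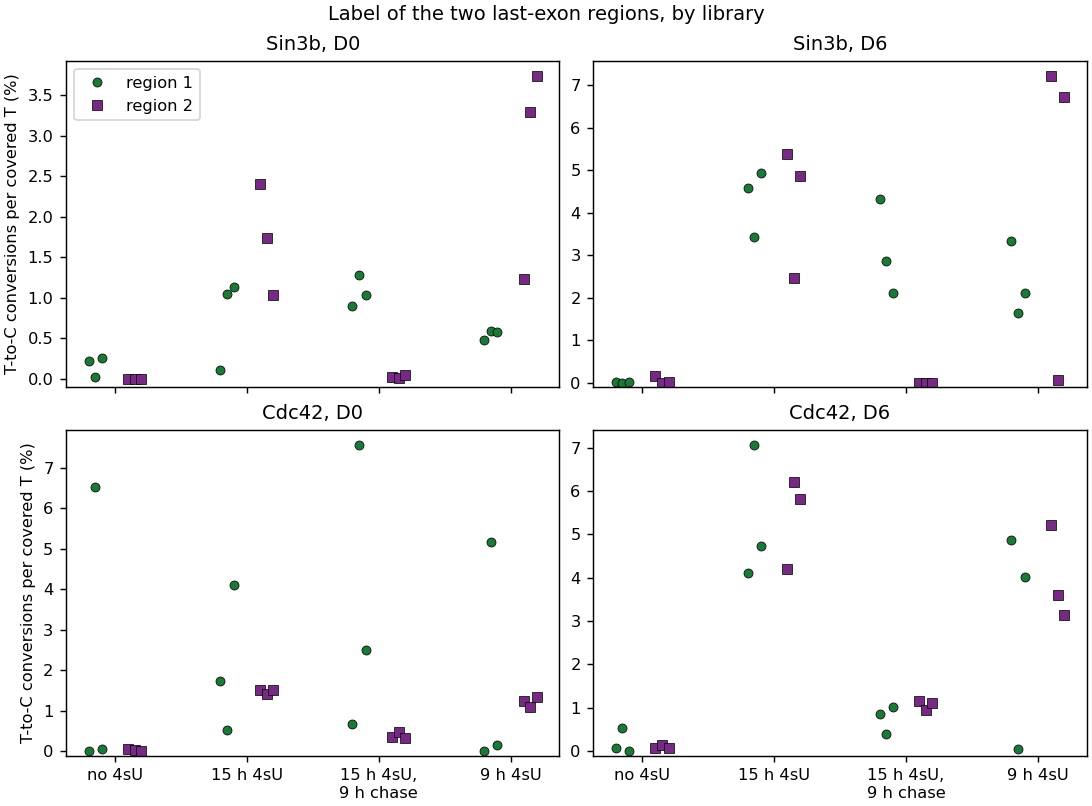
T-to-C conversions per covered T (%, y axis) in region 1 (green circles) and region 2 (purple squares) of Sin3b and Cdc42, by library, without 4sU, after 15 h of 4sU, after 15 h and a 9 h chase, and after 9 h of 4sU. Sin3b region 2 falls to near 0 after the chase in all 6 libraries while region 1 does not. Sin3b region 2 is also at 0.0716% in D6 replicate 53 of 9 h uptake, beside 1.64% in region 1. The endings of Cdc42 have similar means after 15 h at D6. In the same replicate 53, Cdc42 is at 0.0422% in region 1 and 3.59% in region 2. After 9 h of uptake at D0, Cdc42 region 1 is at 0% and 0.148% in replicates 70 and 72, beside 1.23% and 1.35% in region 2. Replicate 71 is at 5.18% and 1.10%.

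The next smallest p-values did not pass adjustment. At D0 these were *Eif4e2*, a cap-binding protein gene, with 0.668% ± 0.543 in region 1 and 0.0112% ± 0.0097 in region 2 after the chase (n = 3 each; edgeR, adjusted p = 0.422), and *Wdr33* (adjusted p = 0.478). At D6 these were *Brwd1*, with 0 conversions of 7371 covered T in its most 3′ region after the chase, and *Thra*, the thyroid hormone receptor alpha gene whose downstream ending gives the form that does not bind hormone (both adjusted p = 0.280). In *Thra* region 2 had 2.40% ± 1.29 after 15 h and 0.843% ± 0.195 after the chase at D6, and region 1 had 3.81% ± 3.50 and 0 of 2708. The endings of *Cdc42* had 5.30% ± 1.55 (region 1) and 5.40% ± 1.06 (region 2) after 15 h at D6, and 0.762% ± 0.318 and 1.07% ± 0.109 after the chase (n = 3 each). The difference between them on the log2 scale was 0.53 ± 0.69 (SE; adjusted p = 0.788), so that its error does not settle whether they were lost alike. The same difference in *Cdc42* at D0 had the other sign, -2.47 ± 1.37 (edgeR, unadjusted p = 0.0726), and was not called. Region 1 of *Cdc42* at D0 had only 378 to 2604 covered T after 15 h and 119 to 3073 after the chase. In chase replicate 35 it had 9 conversions of 119 covered T, so the sign at D0 rests on few bases.

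The label after 9 h of uptake, set against the 15 h label, was compared between endings in the same way. At D0 edgeR called 0 of 111 (0% of all 128 tested), 3 had an unadjusted p under 0.05 and limma on background-subtracted rates called 1, *Acbd6* (adjusted p = 0.0305; 0.849 by edgeR). At D6 edgeR called 0 of 107 (0% of 119), 5 had an unadjusted p under 0.05 and limma called 0. The medians over genes were 100% and 96.2% of the 15 h label in the most 5′ and most 3′ regions at D0, and 80.3% and 78.8% at D6. The smallest p-values at D6 were those of *Septin11*, *Nfx1* and *Cops7a* (adjusted p = 0.544, 0.852 and 0.915), and after *Acbd6* at D0 those of *Wdr33* (0.849) and *Ubap2l* (0.908).

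The label left in a region was also compared between D6 and D0. The median log2 ratio of D6 to D0 was -0.90 over 497 member regions and -0.70 over all 8987 regions. By edgeR 0 member regions were called (0%; 0.312% of all regions), 48 had an unadjusted p under 0.05 and limma called 0. The lowest p on the side of less label left at D6 was that of *Ankrd40* region 2, with 0.910% ± 0.0996 after 15 h and 0.388% ± 0.0799 after the chase at D0, against 5.15% ± 0.860 and 0.159% ± 0.0472 at D6 (n = 3 each; adjusted p = 0.0625). *Mta3* region 1, of a NuRD complex gene, and *Npm1* region 2, of the nucleolar protein nucleophosmin, followed (adjusted p = 0.0743 and 0.215). On the other side, *Qk* region 1, of a splicing and RNA stability factor, had 1.64% ± 0.904 and 0.00949% ± 0.00948 at D0 against 6.68% ± 0.0920 and 2.70% ± 2.83 at D6 (n = 3 each; adjusted p = 0.119), followed by *Ncam1* region 2 (0.295) and *Slc20a1* region 2 (0.315). The difference between the endings of a gene in label left, compared between D6 and D0, was called in 0 of 114 genes by edgeR (0% of all 129), with 5 at an unadjusted p under 0.05.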

How the data were processed

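The deposited tables gave, per library and 3′ UTR interval, the read count, covered T positions, T-to-C conversions, a conversion rate (a fraction) and reads as CPM. The authors made them with SLAMdunk 0.3.3 on mm10 from QuantSeq 3′ FWD libraries. The methods name GENCODE, whereas the interval names in the files are RefSeq. The deposited fraction and CPM columns were not used. Reads of overlapping intervals were not summed: a region was represented by its longest interval. The labels give 0, 1, 3 and 9 h and the methods other hours, so that label tests used 0 and 9 h alone. The usage fits over 41 or 47 libraries included the middle times as labelled.

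Usage and reads were tested with edgeR 4.0.16 (quasi-likelihood, TMM, mean of at least 10 reads per region) and label with conversions at an offset of log covered T (at least 1000). Conversions found without 4sU were not subtracted in the edgeR label fits or in the percentages of label left and uptake. A planned differential usage function takes 1 offset per library, so label was compared between the most 5′ and most 3′ tested regions of a gene with the library as a block. P-values were adjusted (Benjamini-Hochberg) over all genes or regions, whether members or not. Fold SEs come from the F statistics. Counting intervals are exact at 95% and, like floors of 3 reads, cover counting error only. Alternatives used limma 3.58.1 and DESeq2 1.42.0. Scripts were tested on simulated data.

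Named genes were called members with shares that did not overlap (up to 12 each way), textbook members and the 3 smallest p-values of each label test (in each direction between states). *Ctsc* and *Slc44a1*, called but without reads in every library, and *Ap1s2*, *Nsd2*, *Bcl11a* and *Rbbp6* are outside this rule and were named after their values were seen. The members and gene lists were chosen with earlier results of these data known. Symbols came from the RefSeq gene table of GRCm38. In 4 member genes a region overlapped that of another symbol on the same strand, and 38 regions overlapped one on the other strand.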

Additional observations from a re-analysis of the deposited data

How the results depend on the processing

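No paired analysis was made, since replicate numbers run on across libraries and the sources used here do not say which libraries share a culture. Of the alternatives to the number of called genes or regions, 52 of 78 stayed within 1.5 times the number reported. The 13 usage calls became 83 in all 47 libraries, 75 in the 41 with 4sU and 1, *Cdc42*, in the catabolic libraries at 0 h (44 at an unadjusted p under 0.05), and 5 to 12 with a library left out (8 without D0 replicate 56 or 57 or D6 replicate 39, of which 1 in the last was not among the 13, and 5 without D6 replicate 38). DESeq2 gave 123 member regions for 68 in reads, and 44 to 68 with a library left out, each without a share over all regions. For label left at D0 the 1 call became 0 by limma and 0 at minimums of 300 and 5000 covered T, and 0 to 1 with a library left out. At D6 it became 0 by limma and 0 to 2 with a library left out. For label left at D6 against D0, 1 region was called at a minimum of 5000 covered T and 0 to 5 with a D6 library left out. For uptake at D0 limma called 1, and 0 were called with a library left out in either state. The median change of share was 0 points in each alternative. Of the shares that were not called, *Cstf3* was reversed in all 47 libraries (-17.5 points), with 4sU (-20.4), in the catabolic libraries (-27.2), without D0 replicate 56 (-0.474) and without D6 replicate 39 (-5.07; -5.07 to 8.46 over the libraries left out), *Lmna* with 4sU (-1.42) and *Tpm3* without D6 replicate 38 (0.761; -2.28 to 0.761). The cause was not tested. Depth limits what could be tested: 195 of the 683 genes had no region with a mean of 10 reads.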
